A study of Mus musculus with 4 samples.

Results

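The secretory and basal cells of Esr1 Y541S mammary glands were compared between 1 library from giredestrant-dosed animals and 1 library from vehicle-dosed animals. Together they comprised 9092 cells of the 15839 that passed the quality thresholds in this pair of libraries, and of 25950 in all 4 libraries of the study. Secretory cells numbered 1527 with vehicle and 1305 with giredestrant, and basal cells 2823 and 3437. Cells were assigned by summed marker levels per 10000 UMIs (unique molecular identifiers, each standing for 1 captured transcript). A secretory cell had a summed level of at least 10 for Wfdc18, Csn3, Elf5 and Kit, with Acta2, Myh11, Mylk and Tagln under 10. A basal cell had at least 20 for those contractile genes and at least 10 for Krt5 and Krt14. Both had to be under 10 for Esr1, Prlr, Areg and Foxa1, which mark the hormone-sensing cells.

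All animals of the study carried pellets of E2 and P4 (estradiol and progesterone), were 6 months old, and had either wild-type Esr1 (WT) or Esr1 Y541S, a substitution in the ligand-binding domain of the estrogen receptor. Vehicle (MCT) or giredestrant at 30 mg/kg was given by mouth on each of 4 days. Giredestrant is a selective estrogen receptor degrader, an antagonist that also lowers the amount of receptor protein. Epithelial cells were sorted for EpCAM and profiled with 10x Genomics 3' chemistry, 1 library for each genotype and treatment. How many animals went into each library is not given in the sources used here. One label field names mature luminal cells as the source, another names mammary epithelial cells, and basal cells made up 39.1% of kept cells with vehicle and 39.9% with giredestrant.

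The mammary epithelium is a bilayer. Hormone-sensing luminal cells carry the estrogen and progesterone receptors and pass signals to their neighbours, largely through secreted factors. Secretory luminal cells, also called alveolar progenitors, take up milk synthesis in pregnancy under prolactin, whose receptor activates the kinase JAK2 and the transcription factor STAT5. Basal cells are contractile, express smooth-muscle genes and keratins, and rest on the basement membrane. Because the gates require low Esr1 and Prlr, the cells described here have few transcripts of the drug's target, and the comparison asks how the neighbours of hormone-sensing cells differ between the libraries.

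Among protein-coding genes, the highest ratios in secretory cells included those of casein genes, which lie together on chromosome 5. STAT5 binds the letters TTCNNNGAA, and 2288 of 27025 RefSeq promoters (8.47%, 250 bases before to 50 after the start, either strand) hold a match. The promoters of Csn1s1, Csn2 and Csn1s2a each held 1 match. The following windows show these 3 matches. Each is 29 bases, 5′ to 3′ in the direction of the gene, with the match in capitals (RefSeq, GRCm38.p6).
Csn1s1, chr5:87666098-87666126, plus strand, match starting 100 bases before the start: tttgtaacaaTTCTTAGAAtttatgtaaa
Csn2, chr5:87699500-87699528, minus strand, match starting 93 bases before the start: tcacgtagacTTCTTGGAAttgaagggac
Csn1s2a, chr5:87774460-87774488, plus strand, match starting 20 bases after the start: ttatagtgctTTCTTAGAAttacaatgac
The Csn1s1 and Csn1s2a matches have the same letters. Distances are from the RefSeq starts, and the GENCODE vM21 annotation places 2 of the starts elsewhere. It starts Csn2 at 87699630, which puts the match after the start. Csn1s2a starts there at 87774567, which puts the match before the start. The whole stretch of 250 bases before the Csn1s1 start (chr5:87665958-87666207, plus strand) is given because Csn1s1 was the casein with the highest level in the giredestrant library, again with the match in capitals.
Csn1s1: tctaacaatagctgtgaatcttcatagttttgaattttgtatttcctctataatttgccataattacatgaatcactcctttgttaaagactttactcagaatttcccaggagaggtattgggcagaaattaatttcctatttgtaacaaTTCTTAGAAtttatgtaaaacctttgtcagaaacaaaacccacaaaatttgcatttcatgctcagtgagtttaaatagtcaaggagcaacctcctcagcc
A match is a description of these letters and does not show binding.

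The Y541S libraries differed in depth and in more than depth. The vehicle library held 132660456 UMIs over 7812 barcodes and the giredestrant library 70781982 over 10469, and 29 barcodes occurred in both. Median UMIs per cell were 14988 and 6998 in secretory cells and 12187 and 5662 in basal cells, and the median share of mitochondrial UMIs was 1.59% and 2.81% in secretory and 2.19% and 2.63% in basal cells. Secretory cells made up 21.2% (95% exact binomial interval 20.2 to 22.1) of kept vehicle cells and 15.1% (14.4 to 15.9) of kept giredestrant cells. Markers that the gates do not use set the secretory and basal cells apart from each other: the 10 secretory markers summed to 9548 and 13700 CPM (counts scaled to a common total for each class and library) in secretory cells and 728 and 1291 in basal cells, and the 10 basal markers to 6615 and 5932 in basal cells and 363 and 434 in secretory cells. The secretory list did not set secretory cells apart from hormone-sensing cells, in which it summed to 9642 and 3943 CPM. The level of the secretory gate genes, however, differed between libraries. The median of their sum per cell was 128.7 with vehicle and 56.4 with giredestrant, so that 3 vehicle cells and 62 giredestrant cells lay within 1.5 times the threshold, and a difference in the share of secretory cells cannot be told apart from this shift. For the contractile sum of basal cells the medians were 128.8 and 113.4, with 71 and 164 cells that close to the threshold. Esr1, the target of the drug and a gate gene, was at 11 and 21.5 CPM in secretory and at 12.2 and 21.6 CPM in basal cells, levels that the gate itself limits. With 1 library in each group there is no replicate, and differences between treatments cannot be told apart from differences between libraries. Every interval below covers counting error only.

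For each gene the UMIs of a class were summed per library and expressed as CPM, and the log2 ratio of giredestrant to vehicle was taken relative to the median gene tested in that class (the relative log2 ratio). Genes with a mean of at least 10 CPM and at least 20 counts were tested, and the 14 gate genes were left out. A gene was called at 2-fold or more, a relative log2 ratio of at least 1 in size. In secretory cells 266 of 8545 genes (3.11%) were at least 2-fold higher with giredestrant and 316 (3.7%) at least 2-fold lower. In basal cells 148 of 8140 (1.82%) were higher and 89 (1.09%) lower. Higher genes were thus 45.7% of calls in secretory and 62.4% in basal cells. With TMM scaling, which sets the reference level 0.122 (log2) higher in secretory and 0.0855 higher in basal cells, these splits became 29.1% (199 higher, 485 lower) and 49.6% (133 and 135).

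Of 7263 genes tested in both classes, 45 (0.62%) were at least 2-fold higher in both and 24 (0.33%) at least 2-fold lower in both, and these are called shared. Another 72 (0.991%) were higher and 69 (0.95%) lower in secretory cells while staying within 0.5 of the median gene in basal cells, with intervals that did not overlap (secretory-led). The reverse, basal-led, held for 28 higher (0.386%) and 12 lower (0.165%). With TMM scaling the shared genes were 41 higher and 62 lower, and the secretory-led genes 43 and 89, so the larger number turned from higher to lower in both. Only 4 genes (0.0551%) passed 2-fold in opposite directions. Genes called in 1 class and below the testing level in the other are counted apart as restricted: 95 higher and 85 lower in secretory cells, 55 higher and 35 lower in basal cells.

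**Figure D1:**
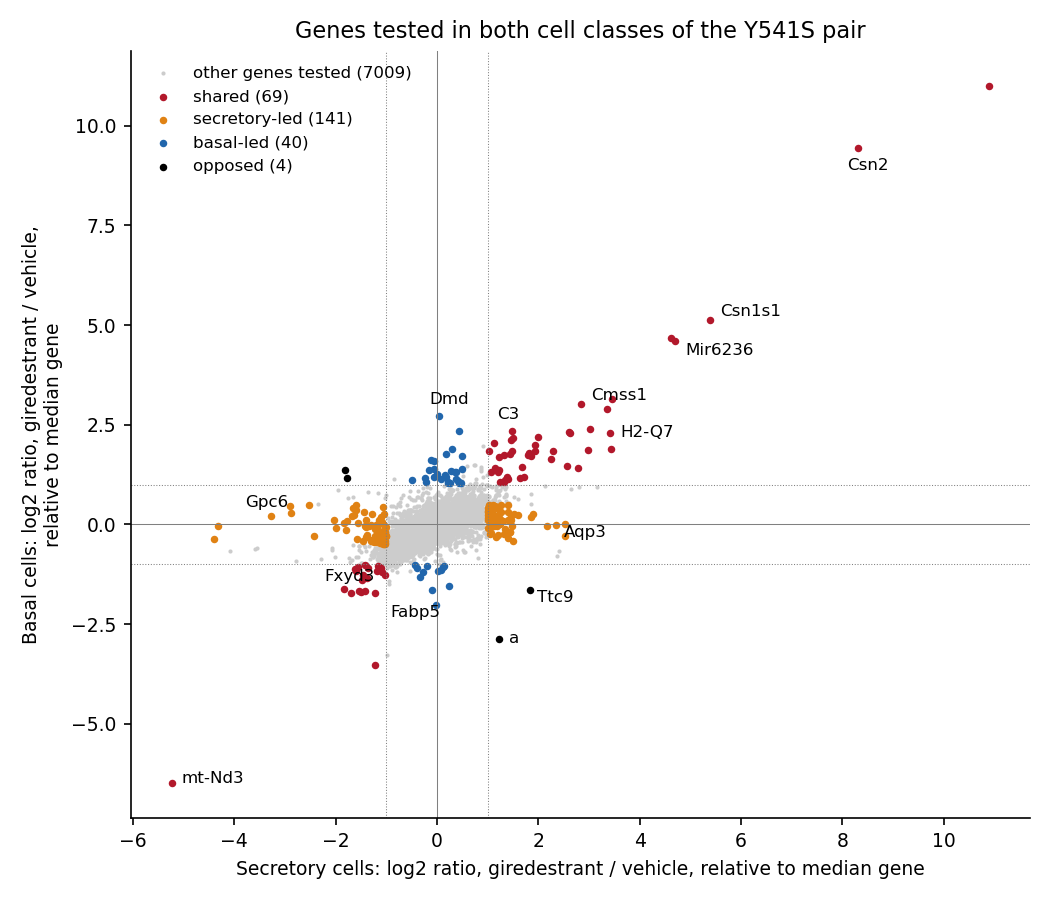
Relative log2 ratio of giredestrant to vehicle in Y541S secretory cells (x axis) against Y541S basal cells (y axis), 1 point per gene tested in both classes (7263 genes), coloured by category with the 2-fold limits drawn as lines. The 69 shared genes lie along the diagonal, while the 141 secretory-led and 40 basal-led genes lie along the axes.

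Many of the shared shifts reached every cell class of the library. Hormone-sensing cells (1971 and 2054) had a summed level of at least 20 for Esr1, Prlr, Areg and Foxa1 with low secretory and contractile sums, and non-epithelial cells (54 and 65, of which 38.9% and 32.3% were scored as doublets) expressed stromal, endothelial or leukocyte markers with few epithelial ones. Of the 45 shared higher genes, 27 were also at least 2-fold higher in hormone-sensing cells and 20 in non-epithelial cells of the same libraries, 17 of them in both. Of all genes tested in those classes 8.59% (hormone-sensing) and 5.83% (non-epithelial) were higher. The 17 included transcripts of mitochondrial and ribosomal loci. Mir6236, a short annotated hairpin locus on chromosome 9, was at 52.6 CPM in vehicle and 1362 CPM in giredestrant secretory cells, at 73.1 and 1845 in basal cells, at 37.9 and 974 in hormone-sensing cells, and at 121 and 4077 in non-epithelial cells. Gm42418, a locus known to carry ribosomal RNA sequence, was at 2106 and 17053 CPM in secretory and 3992 and 21786 in basal cells. The mitochondrial 16S ribosomal RNA mt-Rnr2 was at 2380.0 and 11512 CPM in secretory and 2506 and 9275 in basal cells. All 3 were at least 2-fold higher with giredestrant in each of the 4 cell classes.

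The library-wide set also held protein-coding genes. Cmss1 was at 234 and 1660.5 CPM in secretory and 262 and 2199 in basal cells, Camk1d, a calcium-dependent kinase gene, at 68.7 and 543 and at 152 and 578, and Lars2, the mitochondrial leucyl-tRNA synthetase gene, at 42.3 and 259.8 and at 47.1 and 239. Gm28438, a pseudogene singled out after its values were seen, had the highest ratios of the shared set, from 0.195 to 368 CPM in secretory cells and from 0.191 to 406 in basal cells (relative log2 ratio 10.89 in secretory cells). Hormone-sensing cells had it at 0.152 and 274 CPM. How reads of near-identical copies were assigned is not given in the sources used here, so values of pseudogenes and of mitochondrial copies are uncertain. These values describe the library as a whole, and their part in the other shared shifts was not tested.

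Most shared lower genes were lower in hormone-sensing cells as well. Of 24, 20 were at least 2-fold lower in hormone-sensing cells and 4 in non-epithelial cells, beside 9.46% and 7.59% of all genes tested in those classes. The mitochondrial complex I subunit mt-Nd3 was at 114 CPM in the vehicle and 3.02 CPM in the giredestrant library for secretory cells and at 155 and 1.79 in basal cells (relative log2 ratios -5.23 and -6.48), with 147 and 7.03 in hormone-sensing cells. Its neighbour mt-Co3, a subunit of cytochrome c oxidase, was at 70.5 and 26.3 CPM and at 99.4 and 32.1 CPM. Rpl9-ps6, a ribosomal protein pseudogene, was at 63 and 22.8 CPM and at 55.3 and 23.7 CPM. Rpl36al, which encodes a ribosomal protein, and Med21, a Mediator subunit, were also near 2-fold lower in both classes (relative log2 ratios of -1.09 and -1.19, and of -1.13 and -1.09). In the WT pair, mt-Co3 and Rpl9-ps6 differed the other way by a relative log2 ratio of 1.91 to 2.17 in the 2 classes, while mt-Nd3 was lower there too, at 328 and 75.3 CPM in secretory cells.

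**Figure D2:**
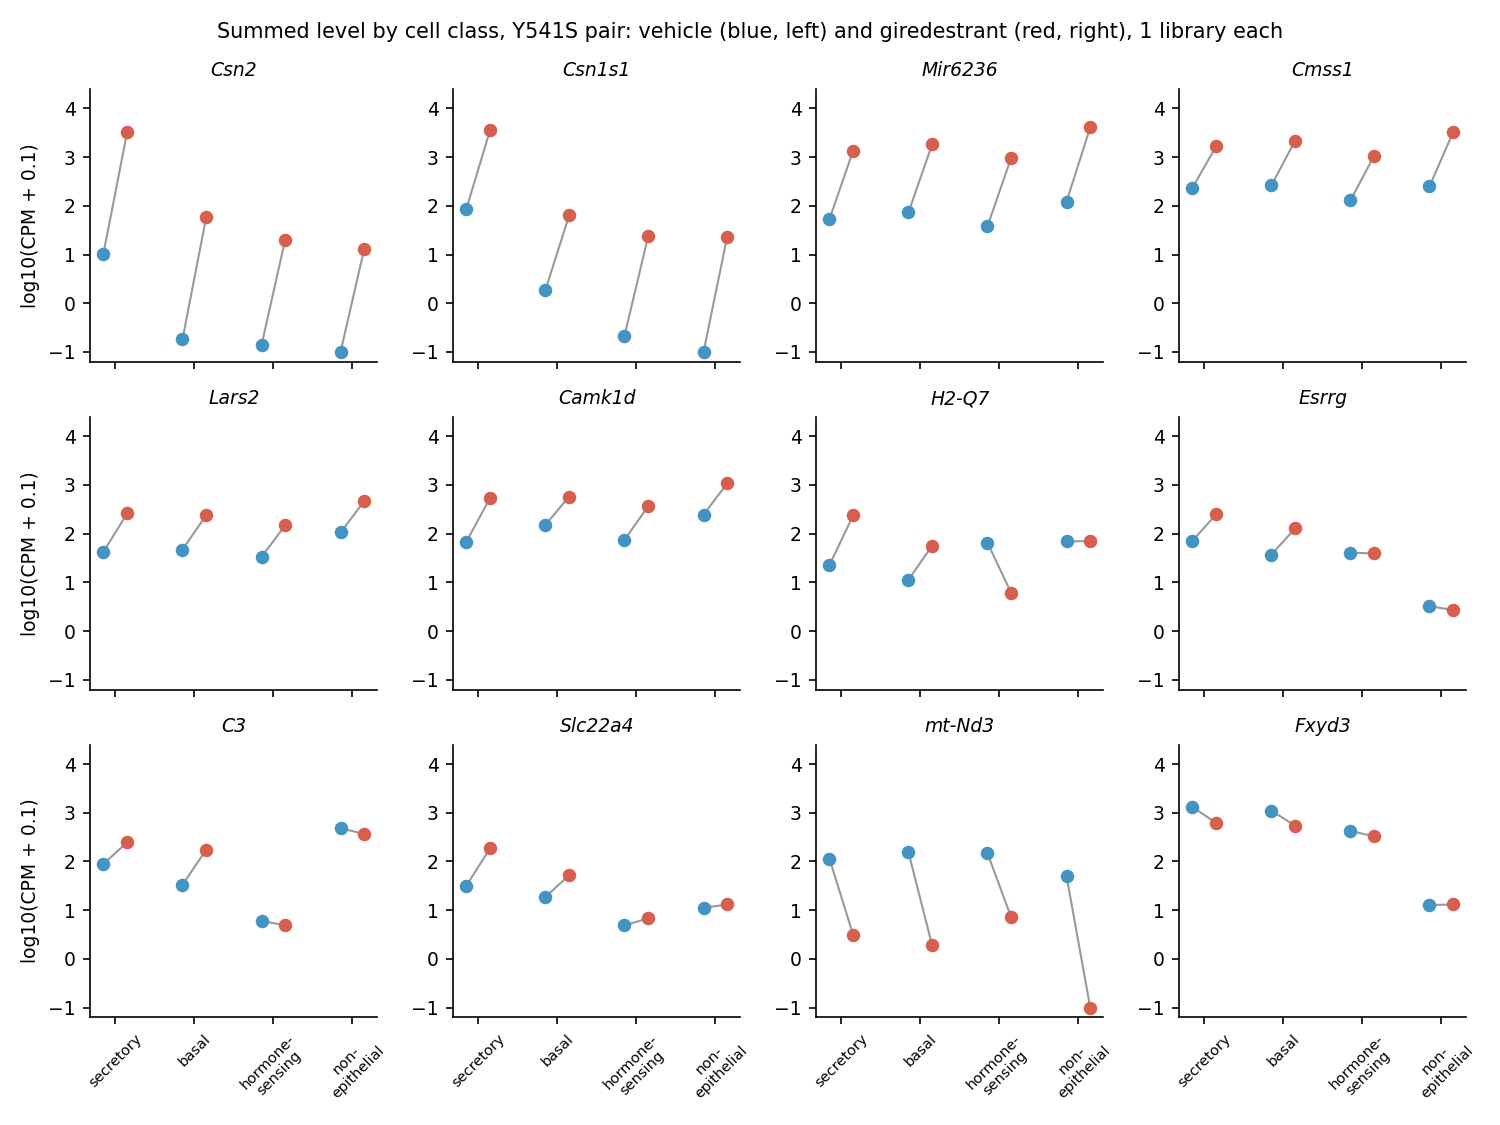
CPM on a log10 scale (0.1 added) of 12 shared genes in secretory, basal, hormone-sensing and non-epithelial cells of the 2 Y541S libraries, 1 point per class and library. Mir6236, Cmss1, Lars2 and Camk1d are higher with giredestrant in all 4 classes, while H2-Q7 is higher in secretory and basal cells and lower in hormone-sensing cells.

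The shared higher genes outside the library-wide set included H2-Q7, Esrrg, C3 and Slc22a4. Of 45, 15 were not called higher in hormone-sensing or non-epithelial cells. Genes below the testing level in those classes, such as C3, Slc22a4 and Kcnd2 in hormone-sensing cells, count as not called. H2-Q7, which encodes the nonclassical MHC class I molecule Qa-2, was at 22.3 CPM in vehicle and 237 CPM in giredestrant secretory cells (relative log2 ratio 3.42, interval 3.29 to 3.55) and at 11.2 and 56.7 in basal cells (2.30, 2.13 to 2.46). Hormone-sensing cells differed the other way, at 64.9 and 5.97 CPM, and non-epithelial cells hardly differed, at 69.4 and 70.1 CPM. H2-Q6 (6.55 and 66.6 CPM in secretory, 3.19 and 24.5 in basal cells) and H2-Q4 (20.8 and 64.7, 21.4 and 49.7) were higher too. These H2-Q genes are near-identical neighbours on chromosome 17, so reads could be split between them and the value of each alone is uncertain.

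Esrrg, the estrogen-related receptor gamma gene, was at 71.5 and 247 CPM in secretory cells and at 37.2 and 128 CPM in basal cells, with relative log2 ratios of 1.80 and 1.73. It was level in hormone-sensing cells, at 40.6 and 39 CPM. Complement component C3 was at 88.7 and 247 CPM in secretory and at 33 and 174 CPM in basal cells, and at 5.92 and 4.77 in hormone-sensing cells. Slc22a4, an organic cation and ergothioneine transporter gene, was at 31.8 and 187 CPM and at 18.5 and 52.5 CPM. Thus for these 3 genes both classes were higher with giredestrant. In hormone-sensing cells Esrrg stayed under 2-fold, and C3 and Slc22a4 (4.74 and 6.71 CPM) were below the testing level. Cd74, the invariant chain of MHC class II, was at 8.66 and 40.7 CPM in secretory and 50.2 and 161 in basal cells, but it is also a marker of macrophages and dendritic cells. The 6 markers of those cells summed to 11.3 and 51.4 CPM in secretory and 55 and 163 CPM in basal cells, most of it Cd74. Lyz2 was at 0.78 and 6.73 CPM and C1qa at 0.663 and 2.41 CPM in secretory cells. In basal cells they went the other way, at 2.02 and 0.873 CPM and at 1.06 and 0.393 CPM. Ptprc, the pan-leukocyte marker, was at or under 0.3 CPM in both classes and both libraries, and C1qb and Csf1r at or under 0.776 CPM. The part of such cells in the Cd74 levels was not tested. In the WT pair Esrrg and Slc22a4 were within 0.4 of the median gene in both classes, and H2-Q7 was lower by 0.86 in secretory and 1.45 in basal cells.

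Other genes met the shared rule with a low level in 1 or both classes. Calca, the calcitonin gene, was at 1.68 and 40.8 CPM in secretory and 1.42 and 37.7 in basal cells, beside 169 and 4113 CPM in hormone-sensing cells and 26 CPM in non-epithelial cells with giredestrant. Kcnd2, a potassium channel gene, was at 263 and 1035 CPM in secretory cells, where it is expressed, and at 5.97 and 28.3 CPM in basal and 0.819 and 12.4 in hormone-sensing cells. Its basal level was 2.27% of the secretory level with vehicle and 2.74% with giredestrant. Ceacam1, a cell adhesion gene, was at 231 and 634 CPM in secretory and 5.89 and 26.6 CPM in basal cells. Free RNA in a droplet library gives such low levels in classes that do not make a transcript. The secretory and basal levels of Calca, near the non-epithelial level, are not read as expression by those classes, and the part of free RNA in them and in the basal levels of Kcnd2 and Ceacam1 was not tested.

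Among the 24 shared lower genes, 3 were called lower in neither of the other classes: Fxyd3, Slpi and a predicted model. Genes below the testing level in those classes count as not called. Fxyd3, a regulator of the sodium pump, was at 1328 and 610.4 CPM in secretory cells and 1103 and 540.0 CPM in basal cells (relative log2 ratios -1.11 and -1.08). It was at 422 and 327 CPM in hormone-sensing cells, and within 0.3 of the median gene in both WT classes. Slpi, a secreted leukocyte protease inhibitor gene, was at 1457 and 132 CPM in basal cells (-3.52, interval -3.57 to -3.47) and at 20.4 and 8.71 CPM in secretory cells. The secretory relative log2 ratio went from -1.2196 to 0.0027 under stricter gates, so the shared call was lost there, and the part of free RNA from basal cells was not tested. Hormone-sensing cells had more Slpi with giredestrant, 130.0 and 442 CPM. In WT basal cells Slpi was lower as well, at 3009.9 and 700.2 CPM. The related inhibitor Wfdc2 was at 40.6 and 13.2 CPM in secretory and 32.2 and 15.3 in basal cells, but at 4066 and 397 CPM in hormone-sensing cells, and the part of free RNA from that class was not tested.

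Casein transcripts were abundant in secretory cells of the giredestrant library. Csn2, beta-casein, was at 10.4 CPM in the vehicle and 3271 CPM in the giredestrant library (relative log2 ratio 8.30, interval 8.13 to 8.48). Csn1s1, alpha-S1-casein, was at 87.5 and 3633 CPM (5.38, 5.32 to 5.45), and Csn1s2a at 3.35 and 1010.5 CPM (8.24, 7.94 to 8.57). These are the genes whose windows are printed above. In basal cells of the same library Csn2 was at 58.5, Csn1s1 at 64 and Csn1s2a at 11.8 CPM, which is 1.79%, 1.76% and 1.17% of the secretory levels. Hormone-sensing cells had Csn2 at 20.2 and Csn1s1 at 23.8 CPM. Csn1s2a was at 9.22 CPM there with vehicle, above the vehicle level of secretory cells, and at 7.54 CPM with giredestrant. Csn2 and Csn1s1 met the shared rule by their low basal levels, although these 2 transcripts were concentrated in secretory cells.

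The share of cells with a casein UMI was compared after thinning each cell to 3000 UMIs, which left out 27 vehicle and 217 giredestrant secretory cells. With Csn2, 12 of 1500 vehicle cells (0.8%, 95% exact interval 0.414 to 1.39) and 773 of 1088 giredestrant cells (71.0%, 68.3 to 73.7) had a UMI. Without thinning these shares were 1.57% and 75.9%. In the giredestrant library 7.64% of basal, 5.41% of hormone-sensing and 9.43% (5 of 53) of non-epithelial cells had one, at median depths of 5662, 9116 and 5633 UMIs before thinning. The basal share thus lies between those of hormone-sensing and non-epithelial cells, the latter with an interval of 3.13 to 20.7%. By level basal cells were above both. Csn2 was at 58.5 CPM, beside 20.2 and 13, and Csn1s1 at 64, beside 23.8 and 23.4. The non-epithelial levels rest on 5 and 9 counts. Neither share nor level is read as expression by basal cells as a class, which was not tested. Of 2840 thinned basal cells 340 had 1 casein UMI, while 9 had at least 16 and up to 86, and the part of free RNA and of doublets in these values was not tested. Of the vehicle library, 0 of 2795 basal cells had a Csn2 UMI, which allows a share of up to 0.107%, and without thinning 0.106% had one. Summed over the 3 caseins, UMIs were spread over most secretory cells with giredestrant. By gene, 85.7% of these thinned cells had a Csn1s1 UMI, while 20.2% (220 of 1088) had a Csn1s2a UMI. Summed casein UMIs per thinned cell had a median of 0 with vehicle and 13 with giredestrant, and 165 of 1500 and 964 of 1088 cells had at least 1. At least 16 casein UMIs were found in 2 vehicle cells (0.133%) and in 486 giredestrant cells (44.7%). The tenth of cells with the most casein held 96.4% of casein UMIs with vehicle and 44.6% with giredestrant. With vehicle only 165 of 1500 cells had any, which sets that share near its limit, so these 2 values do not compare spread.

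**Figure D3:**
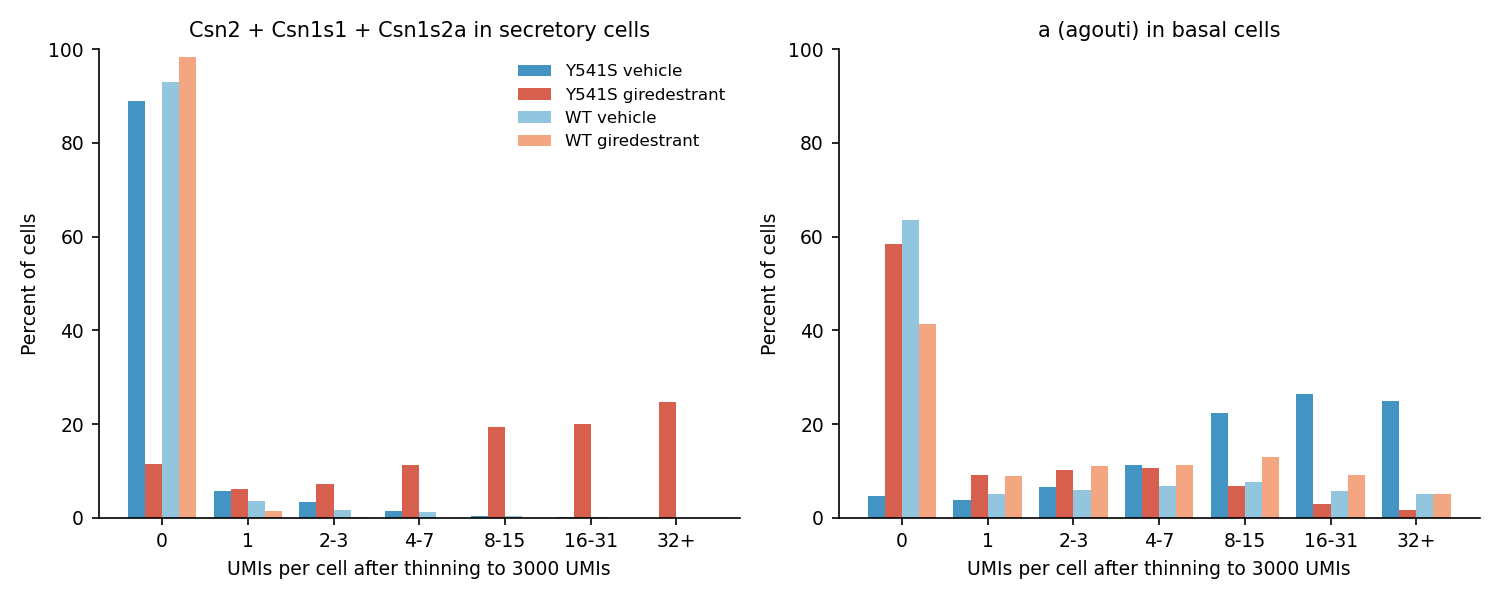
Percent of cells by UMIs per cell after thinning to 3000 UMIs, for summed caseins in secretory cells and for agouti (gene symbol a) in basal cells, in all 4 libraries. Casein UMIs are spread to high values in the Y541S giredestrant library, with 88.6% of cells above 0, and agouti UMIs in the Y541S vehicle library, with a median of 16.

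Milk genes outside the casein cluster differed to unlike extents. Btn1a1, butyrophilin of the milk fat globule, was at 16.4 and 69.8 CPM, and Lalba, the lactose synthase cofactor, at 15.9 and 35.1 CPM, a call that was lost in 3 alternative settings (cycling cells left out, thinning and equal weight per cell). Glycam1 had 0 counts with vehicle and 24.1 CPM with giredestrant, at least 207.5-fold higher against a floor of 3 counts. Trf, transferrin, was at 807 and 1462 CPM in secretory cells, under 2-fold, and at 173 and 485 CPM in basal cells. Ltf, lactoferrin, went the other way, at 111 and 37.8 CPM. Of 9 milk protein genes tested in secretory cells 6 were higher and 1 lower, and their relative log2 ratios had a median of 2.10, beside 0 for all genes with quartiles of -0.378 and 0.323. In basal cells 3 of 4 tested were higher (Trf, Csn1s1 and Csn2) and the median was 3.28, with the caseins at the low levels given above. The casein Csn3 and the whey protein gene Wfdc18 are gate genes and were not tested, and they had lower levels with giredestrant (1637 and 936 CPM for Csn3). In the WT pair Csn2 was at 30.7 CPM in secretory cells with vehicle and had 0 counts with giredestrant, and Csn1s1 was at 58 and 4.59 CPM.

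Milk fat genes showed a smaller difference in secretory cells, with 2 of 12 higher, none of the 12 lower and a median of 0.63. The 2 were Lpl, lipoprotein lipase, at 4.13 and 33.8 CPM, and Xdh, xanthine oxidoreductase of the milk fat globule, at 58 and 153 CPM. In basal cells 1 of 12 was higher, the desaturase gene Scd1 (10 and 27.3 CPM), and the median was 0.11. Of 10 genes of the prolactin, JAK2 and STAT5 pathway tested in secretory cells, Socs1 alone was higher (8.27 and 16.8 CPM, a relative log2 ratio of 1.03 that became 0.91 with TMM scaling and 0.863 after thinning) and none was lower, and the median was 0.14. Genes induced by progesterone or glucocorticoid included 5 higher of 17 in secretory cells (median 0.54). Among them were Pdk4, a kinase that restrains pyruvate oxidation, at 33.3 and 232 CPM, Fkbp5, a steroid receptor cochaperone, at 46.1 and 115 CPM, and Wnt4 at 13.3 and 34.9 CPM. Wnt4 and Fkbp5 also had higher levels in hormone-sensing cells, with Wnt4 at 275 and 456 CPM there, and the part of free RNA in the secretory Wnt4 level was not tested. The 5 also included Mt2, just past 2-fold at 74.7 and 149 CPM and under it in 6 alternative settings, and Calca, whose low secretory and basal levels are described above. In basal cells 3 of 15 were higher (median 0.66): Calca, Ddit4 and Tgm2.

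Secretory-led higher genes included Aqp3, Prkg1 and Pfkfb3. Aqp3, a water and glycerol channel, was at 11.8 and 60.1 CPM in secretory cells (2.35, interval 2.16 to 2.55) and at 30.3 and 31.2 CPM in basal cells. Prkg1, cGMP-dependent protein kinase, was at 395 and 1096 CPM in secretory and 2635 and 2674 in basal cells, so the higher basal level held steady. Pfkfb3, a regulator of glycolysis, was at 30.6 and 83.6 CPM against 20.3 and 22.5 in basal cells. The fatty acid transporter Slc27a1 was at 27.4 and 62.4 CPM, and the ectonucleotidase Entpd1 at 43.8 and 109.6 CPM, both level in basal cells. Of the 72 genes of this set, 16 were also at least 2-fold higher in hormone-sensing and 5 in non-epithelial cells. Of all genes tested there 8.59% and 5.83% were higher. Of the 72, 52 were called higher in neither, which includes genes below the testing level there. Aqp3 and Prkg1 were higher in hormone-sensing cells too, at 22.1 and 179 CPM and at 14.1 and 224 CPM.

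Higher genes restricted to secretory cells included Muc4, Gne, Rab7b and Pdgfd. Muc4, a membrane mucin, was at 45.1 and 415 CPM (3.21, interval 3.11 to 3.30) and in basal cells at 0.573 and 11.3 CPM, 2.74% of the secretory level with giredestrant. Gne, the key enzyme of sialic acid synthesis, was at 34.4 and 177 CPM. Rab7b, a small GTPase of endosomes, was at 33.8 and 119 CPM, and the growth factor gene Pdgfd at 19.7 and 71.8 CPM. In the WT pair Muc4 differed the other way, at 105 and 41 CPM, and Gne was level, at 44.3 and 41.4 CPM.

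Secretory-led lower genes included Mme, Gpc6, Dsp and Cxcl1. Mme, the cell surface peptidase neprilysin, was at 86.6 and 11.5 CPM in secretory cells (-2.91, interval -3.17 to -2.66) and at 85 and 121 CPM in basal cells. Gpc6, a glypican, was at 564 and 76.4 CPM against 892 and 1129 CPM, and Ctnnd2, delta-catenin, at 137 and 25.3 CPM against 547 and 467 CPM. Dsp, which encodes the desmosomal plaque protein desmoplakin, was at 72.9 and 24 CPM, while basal cells had 269 and 394 CPM. Tm4sf1, a surface protein gene, was at 1257 and 313 CPM in secretory cells and at 437 and 429 CPM in basal cells. In hormone-sensing cells Tm4sf1 was lower too, at 312 and 132 CPM, while Gpc6 was higher there, at 7.92 and 46.9 CPM. The neutrophil chemokine Cxcl1 was at 109 and 34.8 CPM in secretory and 36.2 and 44.4 CPM in basal cells. For each of these genes the secretory level with giredestrant was below the basal level, whereas with vehicle Mme was about equal in both classes. Of the 69 genes of this set, 10 were also at least 2-fold lower in hormone-sensing and 7 in non-epithelial cells. Of all genes tested there 9.46% and 7.59% were lower.

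Lower genes restricted to secretory cells included Dlg2, Tspan8, Hp and Aldh1a3. Dlg2, a synaptic-type scaffold gene, was at 117 and 4.83 CPM (-4.59) and was lower in WT secretory cells as well, at 532 and 154 CPM. The tetraspanin Tspan8 was at 164 and 16.6 CPM in Y541S and level in WT secretory cells, at 162 and 159 CPM. Haptoglobin, Hp, was at 261 and 42.9 CPM, with 959 and 49.4 CPM in hormone-sensing cells, and at 61.9 and 2.71 CPM in WT secretory cells. Nupr1, a stress-induced nuclear protein gene, was at 65.7 and 13.6 CPM beside 807 and 121 CPM in hormone-sensing cells. Hp and Nupr1 were thus higher in hormone-sensing cells, and how much of their secretory level is free RNA was not tested. The transcription factor gene Sox6 was at 80.9 and 23.7 CPM, and the chemokine Cxcl2 at 51.8 and 17.5 CPM. Aldh1a3, a retinaldehyde dehydrogenase that marks luminal progenitors, was at 342 and 117 CPM, and the share of thinned cells with a UMI was 43.7% (41.2 to 46.3) and 16.8% (14.6 to 19.2), beside 0.608% and 0.634% in basal cells. The rest of the luminal progenitor list did not follow it: of 12 tested, 2 were higher (Krt15, and Cd55, which was under 2-fold with TMM scaling and equal weight per cell) and 1, Aldh1a3, lower, with a median of 0.21.

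Cell cycle transcripts had lower levels in secretory cells, while the share of cells scored as cycling, at unequal depth, was alike. Of 16 G2/M genes 6 were at least 2-fold lower and none of the 16 higher (median -0.79), and of 16 S phase genes 3 were lower and none of the 16 higher (median -0.75), of which Rrm2 and Mcm5 were under 2-fold in 3 alternative settings each. Cdk1, the mitotic kinase, was at 67 and 22.3 CPM, Ccnb1, its cyclin, at 25 and 9.4 CPM, and Birc5, survivin, at 76.5 and 31.5 CPM. Mki67, the proliferation antigen, was at 94.3 and 147 CPM. Cells with a summed level of at least 5 per 10000 UMIs for Mki67, Top2a, Cdk1, Ccnb1, Cenpf, Birc5, Rrm2 and Tyms were 17.6% of secretory cells with vehicle and 16.2% with giredestrant, and 4.43% and 4.51% of basal cells. These shares were taken without thinning, at median depths of 14988 and 6998 UMIs in secretory cells, so fewer UMIs reached the level with giredestrant. The shares were not compared at equal depth. Leaving the cycling cells out moved the G2/M median to 0.0327. In basal cells 1 of 10 G2/M genes was higher, Mki67 (17.2 and 36.1 CPM), and the median was -0.27.

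Of 7 whey acidic and protease inhibitor genes tested, 4 were lower and none of the 7 higher (median -1.22): Cst3, cystatin C, at 229 and 33.1 CPM, Serpinb5, maspin, at 216 and 81.1 CPM, Slpi and Wfdc2. The median is the value of Slpi, whose secretory call was lost under stricter gates, where the list's median was -1.0748. In basal cells 2 of 6 were lower (median -0.62), Slpi and Wfdc2, and Wfdc2 in basal cells was between -0.7020 and -0.9023 in 4 alternative settings. Of 3 Id genes tested in secretory cells 2 were lower and Id2 was not, at 70.4 and 81.3 CPM. Id1 and Id3, inhibitors of helix-loop-helix transcription factors, were at 15.6 and 5.26 CPM and at 16.9 and 6.38 CPM in secretory cells, while basal cells had 35.1 and 37.1 CPM of Id1 and 184 and 208 CPM of Id3. Among 10 genes of the NF-kB and acute phase list, 4 were lower (Lcn2, Cxcl1, Cxcl2 and Hp) and 2 higher (C3 and Lrg1, the latter under 2-fold in 3 alternative settings) in secretory cells, and of 7 in basal cells C3 alone was higher. Of 7 matrix genes in secretory cells Timp3 (39.3 and 9.49 CPM) and Mmp14 (38 and 11.2 CPM) were lower and Tnc (2.81 and 17.9 CPM) was higher, whereas in basal cells Adamts1 (216 and 496 CPM) and Mmp2 (26.3 and 61.9 CPM) were higher and none of 10 lower.

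Of the listed MHC class I genes more passed 2-fold in secretory than in basal cells, while the list medians were alike. This difference was not tested. H2-Q7 and H2-Q6, which are outside this list, passed 2-fold in both classes. Of 11 tested, 4 were at least 2-fold higher in secretory cells (median 0.73) and 1 in basal cells (median 0.76), and none of the 11 was lower in either. Beta-2-microglobulin, B2m, was at 303 and 1086 CPM in secretory and 461 and 808 CPM in basal cells. The classical heavy chain H2-K1 was at 564 and 1439 CPM and at 529 and 1041 CPM, and H2-D1 at 426 and 841 and at 396 and 802 CPM. Nlrc5, the transactivator of MHC class I genes, was at 7.8 and 69.7 CPM in secretory cells (3.17, interval 2.94 to 3.40) and at 96.4 and 189.8 CPM in basal cells. In hormone-sensing cells H2-K1 was at 1286 and 287 CPM, the opposite direction. Of the interferon response list, 1 of 9 was higher and 1 lower in secretory cells (median 0.20). In basal cells none of 11 was higher and 1, Bst2, was lower (median 0.06), a call lost in 3 alternative settings.

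**Figure D4:**
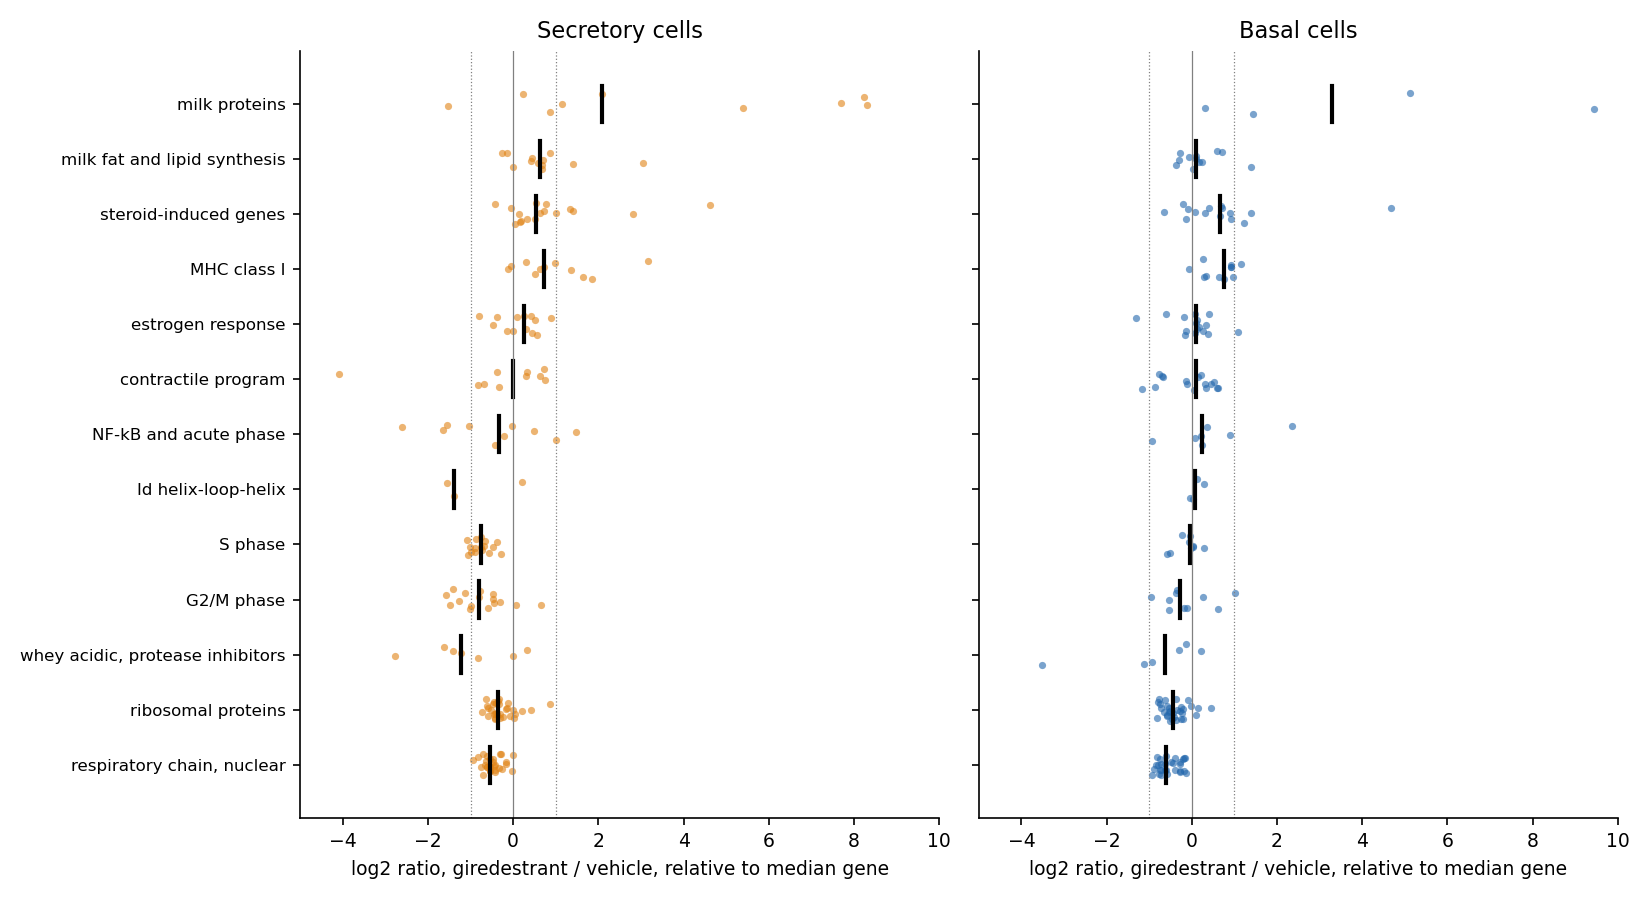
Relative log2 ratios in Y541S secretory and basal cells for the tested members of 13 gene lists, 1 dot per gene with a bar at the list's median. Milk protein genes stand highest of these lists in secretory cells (median 2.10, 9 tested) and in basal cells (3.28, 4 tested, with caseins at low levels). In secretory cells the Id genes and whey acidic and protease inhibitor genes stand lowest (medians -1.40 and -1.22), while the basal medians of the Id and cell cycle lists lie nearer 0.

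Basal-led higher genes included Dmd, Magi2 and Cp. Dmd, dystrophin, was at 25.5 CPM in the vehicle and 174 CPM in the giredestrant library for basal cells (2.72, interval 2.62 to 2.83) and at 25.3 and 26 CPM in secretory cells. Magi2, a membrane scaffold gene, was at 154 and 488 CPM in basal cells and near 10 CPM in secretory cells of both libraries. Thsd7a, a thrombospondin-domain gene, was at 38.6 and 148 CPM, and Dclk1, a microtubule-associated kinase gene, at 133 and 353 CPM, with 176 and 158 CPM in secretory cells. Cp, the copper-carrying ferroxidase ceruloplasmin, was at 87 and 269.8 CPM against 187 and 179 CPM in secretory cells. Ddit4, an inhibitor of mTORC1 signalling, was at 22.6 and 60.9 CPM. None of these 6 was 2-fold higher in WT basal cells, and Dclk1 was lower there, at 314 and 134 CPM. Of the 28 basal-led higher genes, 12 were also at least 2-fold higher in Y541S hormone-sensing and 3 in non-epithelial cells. Of all genes tested there 8.59% and 5.83% were higher. In hormone-sensing cells Thsd7a was higher, at 5.83 and 49.8 CPM, and Cp and Ddit4 were lower. Dmd, Magi2 and Dclk1 were below the testing level there.

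Gene length moved with part of this pattern. Of the 28 basal-led higher genes 7 spanned over 300 kb, as did 8 of the 55 basal-restricted higher genes, 8 of the 72 secretory-led higher and 7 of the 69 secretory-led lower. So did 6 of the 35 basal-restricted lower genes and 0 of the 12 basal-led lower. Of the secretory-restricted genes, 5 of the 95 higher and 6 of the 85 lower did. Of the shared genes with a known span, 5 of 44 higher and 1 of 24 lower did. Among all genes tested, 311 of 8140 in basal cells and 254 of 8545 in secretory cells spanned over 300 kb. Of the 311 genes over 300 kb tested in basal cells 6.75% were higher and 3.22% lower, beside 1.82% and 1.09% of all genes, and their median was 0.0504. In secretory cells 7.87% of 254 such genes were higher and 5.91% lower, and genes under 20 kb had a median of -0.256. The handling of intronic reads is not given in the sources used here, and the part of gene length in these calls was not tested.

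Higher genes restricted to basal cells included Lingo2, Brinp3, Ccl7 and Bnc2. Lingo2, which encodes a leucine-rich repeat membrane protein, was at 11.5 and 186 CPM (3.97, interval 3.83 to 4.12), and the share of thinned basal cells with a UMI was 1.97% (1.49 to 2.55) and 23.9% (22.3 to 25.5), beside 0.533% and 0.919% of secretory cells. In WT basal cells Lingo2 differed the other way, at 143 and 12.2 CPM. Brinp3 was at 22.2 and 143 CPM, and the protocadherin Pcdh9 at 11.9 and 64.5 CPM. The chemokine Ccl7, which attracts monocytes, was at 27.2 and 146 CPM. Prrx1, a mesenchymal homeobox gene, was at 15.7 and 66.5 CPM and Bnc2, basonuclin 2, at 26.8 and 104 CPM. Prrx1 and Bnc2 are also expressed in the non-epithelial cells, at 194 and 182 CPM and at 301 and 208 CPM. The 6 fibroblast markers summed to 256 CPM in basal cells with vehicle and 413 with giredestrant, nearly all of it Dcn, with Col1a1 at 1.17 and 1.70 CPM and Lum at 0.0818 and 0.0873 CPM. Endothelial markers summed to 4.34 and 20.5 CPM and pericyte markers to 10.8 and 46.7 CPM, of which Rgs5 made up 3 and 25.8 CPM. The part of such cells in the basal shifts was not tested.

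Lower genes in basal cells included Fabp5, Mgp, Sorcs1 and Actg2. Fabp5, a fatty acid binding protein gene, was at 454 and 116 CPM in basal cells (-2.02, interval -2.08 to -1.96) and at 289 and 283 CPM in secretory cells. Matrix Gla protein, Mgp, an inhibitor of calcification, was at 488 and 246 CPM (-1.04, under 2-fold with plain CPM and with stricter gates). The histone gene Hist1h2bc was at 66 and 27.2 CPM, and Fkbp11, a prolyl isomerase gene of the secretory pathway, at 74.1 and 36.6 CPM. These 3 were lower in hormone-sensing cells too, at 86.7 and 21.2, 401 and 124, and 110 and 54.4 CPM. Fabp5 was below the testing level there. Of the 12 basal-led lower genes 6 were lower there and 3 in non-epithelial cells, beside 9.46% and 7.59% of all genes tested. The sorting receptor gene Sorcs1 was at 267 and 88.2 CPM, the carboxypeptidase gene Cpa6 at 232 and 103 CPM, and the heparan sulfate sulfotransferase gene Hs6st3 at 79.5 and 37.4 CPM. Actg2, the smooth-muscle gamma-actin, was at 527 and 243 CPM. It was the 1 of 16 contractile genes tested in basal cells past 2-fold, none of the 16 was higher, and the list's median was 0.10. In secretory cells the oxytocin receptor gene Oxtr was at 22.2 and 1.29 CPM, beside 95.2 and 61.8 CPM in basal cells.

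Receptor and growth factor lists were mostly level. Of 13 estrogen response genes tested in secretory cells none was 2-fold higher and none of the 13 lower (median 0.26), and of 16 in basal cells Ccnd1, cyclin D1, was higher (28.9 and 63.5 CPM) and Igfbp4 lower (45 and 18.9 CPM). Of 8 EGF family genes in secretory cells none passed 2-fold either way. In basal cells Hbegf (69.9 and 150.1 CPM, under 2-fold with TMM scaling and without cycling cells) and Erbb4 (10.3 and 26.4 CPM) were higher of 7, with Erbb4 at 1.60% and 3.22% of the secretory level. Ribosomal protein genes had medians of -0.35 in secretory and -0.44 in basal cells, and nuclear genes of the respiratory chain -0.54 and -0.61, with none of the 31 and 29 past 2-fold in either class.

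Opposite directions were found for 4 genes, and agouti (symbol a), a secreted ligand of melanocortin receptors, had by far the highest level of them. Agouti was at 7422 CPM in the vehicle and 1048 CPM in the giredestrant library for basal cells (-2.87, interval -2.89 to -2.85), and at 435 and 1015 CPM in secretory cells (1.23, 1.19 to 1.27). Basal cells of the WT libraries had 1746 and 2346 CPM, so the Y541S vehicle library stood apart from the other 3. Agouti UMIs per thinned basal cell had a median of 16 in the Y541S vehicle library, 0 with giredestrant, and 0 and 1 in the WT vehicle and giredestrant libraries. At least 16 such UMIs were found in 51.3%, 4.72%, 10.8% and 14.2% of basal cells in the same order. In Y541S secretory cells the share with a UMI was 47.5% and 72.9%. Ttc9, a tetratricopeptide repeat gene, was at 17.9 and 63.3 CPM in secretory and 45.9 and 15.1 CPM in basal cells. Car8, a carbonic anhydrase-related gene, and Fam83a were lower in secretory cells (27.3 and 7.93 CPM, 44.4 and 12.5 CPM) and higher in basal cells (7.2 and 16.7 CPM, 5.89 and 15.7 CPM).

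The same comparison in the WT pair, which shares no library with the Y541S pair, gave few of the same calls. WT secretory cells numbered 668 and 588 and WT basal cells 4604 and 942. In WT secretory cells 107 of 8725 genes (1.23%) were higher with giredestrant and 125 (1.43%) lower, and in WT basal cells 139 of 8277 (1.68%) were higher and 209 (2.53%) lower. Of 523 genes called in Y541S secretory cells and tested in both pairs, 36 (6.88%) were called the same way in WT and 42 the opposite way, and the 36 were 18.2% of the 198 WT calls. Of 186 such genes in basal cells, 12 (6.45%) were called the same way, 3.85% of 312 WT calls, and 50 the opposite way. Across genes the 2 sets of ratios had a Pearson r of -0.204 and a Spearman rho of -0.247 in secretory cells (8358 genes) and of -0.175 and -0.145 in basal cells (7926 genes). Genes are not independent replicates, and the 4 libraries differ in depth, so these values describe the libraries.

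The categories were also set beside the WT pair. Of the 24 shared lower genes, 13 were at least 2-fold higher in WT secretory cells and 12 in WT basal cells, and 3 were lower in each. Of the 45 shared higher genes, 6 were lower in each WT class, while 2 in secretory and 1 in basal cells were higher. Of the 72 secretory-led higher genes 5 were higher and 3 lower in WT secretory cells, and of the 69 secretory-led lower genes 5 were lower and 2 higher. None of the 28 basal-led higher genes was higher in WT basal cells and 7 were lower. The difference between genotypes was not tested, since each ratio rests on 1 library a group.

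**Figure D5:**
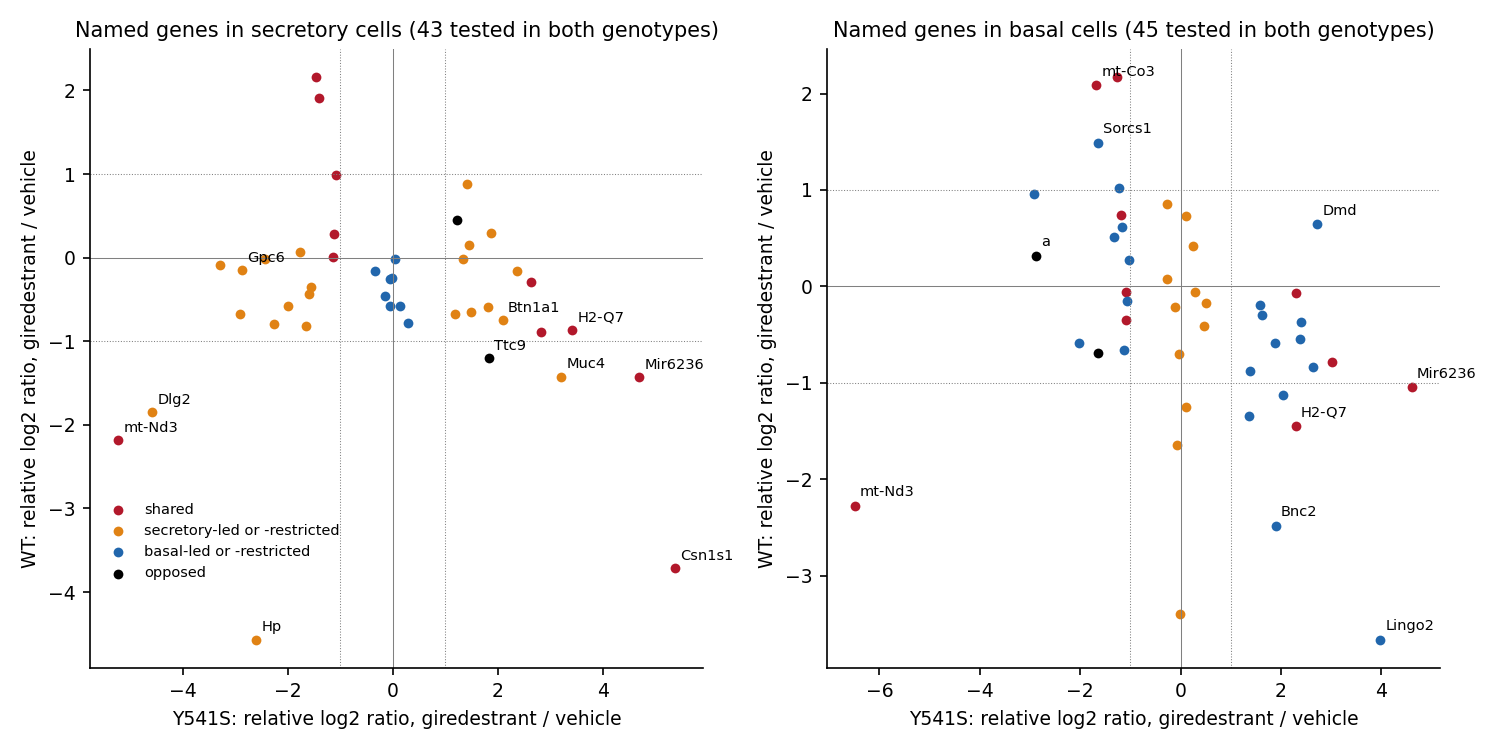
Relative log2 ratio of giredestrant to vehicle in the Y541S pair (x axis) against the WT pair (y axis) for the named genes tested in both, 43 in secretory cells and 45 in basal cells, 1 point per gene. Csn1s1 lies high in Y541S and low in WT secretory cells, and Lingo2 in basal cells likewise, at 3.97 and -3.66, while Csn2, with 0 counts in the WT giredestrant library, is not drawn.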

How the data were processed

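The authors deposited whole-number UMI counts of each gene in each barcode for 4 libraries, made with Cell Ranger 6.0.1 per the file headers, and other text (gene identifiers, symbols and barcodes) in the order of the matrix rows and columns. The genome was GRCm38 per the submitters' processing notes, and the annotation release and the handling of intronic reads are not given in the sources used here. Of 52636 gene identifiers 52489 were found in GENCODE vM21, which gave coordinates.

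Barcodes with at least 1000 UMIs, at least 500 genes and at most 15% mitochondrial UMIs were kept. Doublet-scored cells (Scanpy 1.11.5, an assumed 0.8% per 1000 cells) were kept in the values given and left out in an alternative. Counts were summed per class and library, and log2 ratios of CPM were taken relative to the median gene tested, with exact conditional binomial 95% intervals (SciPy 1.17.1). The calculation was tested on simulated data. With 1 library a group there was no test and no p-value.

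Genes named were the 6 furthest of each shared or class-led set by rule among those reaching 50 CPM (predicted models left out), the 6 furthest each way among restricted genes, opposed genes at that level, and members of 36 gene lists. Gm28438, Gm42418, mt-Rnr2, Camk1d, H2-Q6, Esrrg, Slc22a4, Cd74, Kcnd2, Ceacam1 and the opposed genes Car8 and Fam83a fall outside this rule and were chosen after their values were seen. A gene that the rule names is not reported here. The members and lists were chosen with earlier results of these data known. In all, 11 alternative settings were computed. Promoter sequence came from RefSeq, GRCm38.p6.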

Additional observations from a re-analysis of the deposited data

Results flagged for a closer look

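Differences between groups put these results here. Each compares 2 relative log2 ratios that rest on 1 library a group, and none of the differences was tested. Between classes of the Y541S pair, agouti (symbol a) was higher in secretory and lower in basal cells with giredestrant, with ratios 4.10 apart (log2), and Ttc9 likewise, 3.48 apart.

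Between genotypes, 17 ratios of named genes passed 2-fold in opposite directions. In secretory cells Y541S minus WT was 15.56 for Csn2, where 0 counts in the WT giredestrant library make the WT ratio a bound, 9.10 for Csn1s1, 4.63 for Muc4 and 3.03 for Ttc9. In basal cells it was 7.64 for Lingo2, 4.38 for Bnc2, 3.74 for H2-Q7, 3.16 for Prrx1, 2.70 for Dclk1, -3.13 for Sorcs1 and -2.24 for Cpa6. For Mir6236, mt-Co3 and Rpl9-ps6, which met the shared rule, it was alike in both classes. It was 6.13 in secretory and 5.65 in basal cells for Mir6236, -3.33 and -3.77 for mt-Co3, and -3.62 and -3.44 for Rpl9-ps6.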

How the results depend on the processing

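Over 11 alternatives, 73 of 110 counts of genes stayed within 1.5 times the value given and 37 moved further. Of 666 list medians 645 and of 1352 gene values 1082 moved little, and 1 of each changed sign: the secretory G2/M median went from -0.7922 to 0.0327 without cycling cells, and Slpi in secretory cells from -1.2196 to 0.0027 under stricter gates. TMM scaling gave 485 secretory lower, 135 basal lower, 62 shared lower and 43 secretory-led higher genes, and all 24 shared lower and 41 of 45 shared higher genes were among its calls. Shared lower genes numbered 42 after thinning and 39 with equal weight per cell, and basal-led lower genes 7 without cycling cells. The filter and threshold moved counts by construction, given here in the order secretory, basal, shared, secretory-led and basal-led, higher then lower. With a mean of at least 50 CPM they were 77 and 140, 43 and 36, 17 and 12, 15 and 15, and 5 and 2. Without a CPM filter they were 1175 and 1004, 1132 and 634, 308 and 159, 251 and 221, and 112 and 46. At 1.5-fold they were 880 and 1290, 476 and 643, 179 and 407, 385 and 405, and 107 and 63. Causes of the other moves were not tested. Depth limits low genes, and leaving out a replicate was not possible with 1 library a group. No paired analysis was possible because each group has 1 library.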
